A study of Mus musculus with 12 samples.

Results

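The transcripts of 10 microglia marker genes were followed in the prefrontal cortex (PFC) of mice after repeated cocaine. The genes were Cx3cr1, Csf1r, C1qa, C1qb, C1qc, P2ry12, Tmem119, Aif1, Trem2 and Tyrobp. They were chosen by name, as genes known to mark microglia, by a rule that uses no measured value, though with earlier results of these data known. The 10 are among 39929 gene names listed in the 3 tables of the series, and every member was found on 1 row of each table.

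The animals were C57BL/6 mice (C57BL/6 J in the methods), 10 weeks old and male, that received repeated injections of saline (labelled control) or of cocaine. The bilateral PFC was taken at 3 times after the last injection, namely 2 h, 24 h and 7 d, which gives 6 groups. Each group had 2 libraries of polyA-selected RNA and each library pooled the PFC of 5 animals, 12 libraries in all. Every group, control groups included, had been injected repeatedly, and the series has no group without injections. The values are FPKM, the fragments counted for a gene divided by the length of its transcript in kilobases and by the number of mapped fragments. There is 1 FPKM per gene and group, pooled over its 2 libraries, so that neither a spread between replicates nor the depth behind a value is known from the tables. No difference was therefore tested, and all differences are descriptions of the pooled values. The tissue was bulk PFC, in which fewer microglia and less RNA per microglial cell cannot be told apart.

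Microglia are the resident macrophages of the brain. They depend on signals through the receptor encoded by Csf1r, take up debris and synapses, and survey their surroundings with motile processes. The other members cover receptors that sense neurons and injury (Cx3cr1, P2ry12, Trem2), the signaling adaptor Tyrobp that TREM2 uses, the 3 chains of complement C1q, the membrane protein Tmem119 and the actin-binding protein Aif1, also called IBA1. The cortex also holds neurons, astrocytes, oligodendrocytes and vessel cells, and 9 neuron markers summed to 3659 to 3885 FPKM in the saline groups.

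All 10 members were detected in every group, between 7.71 FPKM (Aif1, cocaine at 2 h) and 60.4 FPKM (C1qb, saline at 7 d). Markers of related cells that could carry the same transcripts were low. Of 7 markers of border macrophages, the highest value in any group was 3.55 FPKM for Pf4, and Mrc1, which marks perivascular macrophages, was not over 1.31 FPKM. Of 11 markers of blood cells, the monocyte receptor Ccr2 reached 0.239 FPKM and the T cell gene Cd3e 0.117 FPKM, while Ly6c2, whose reads can be confused with those of the endothelial gene Ly6c1, reached 7.71 FPKM. The share of border macrophages or blood cells in the members' values was not tested.

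**Figure D1:**
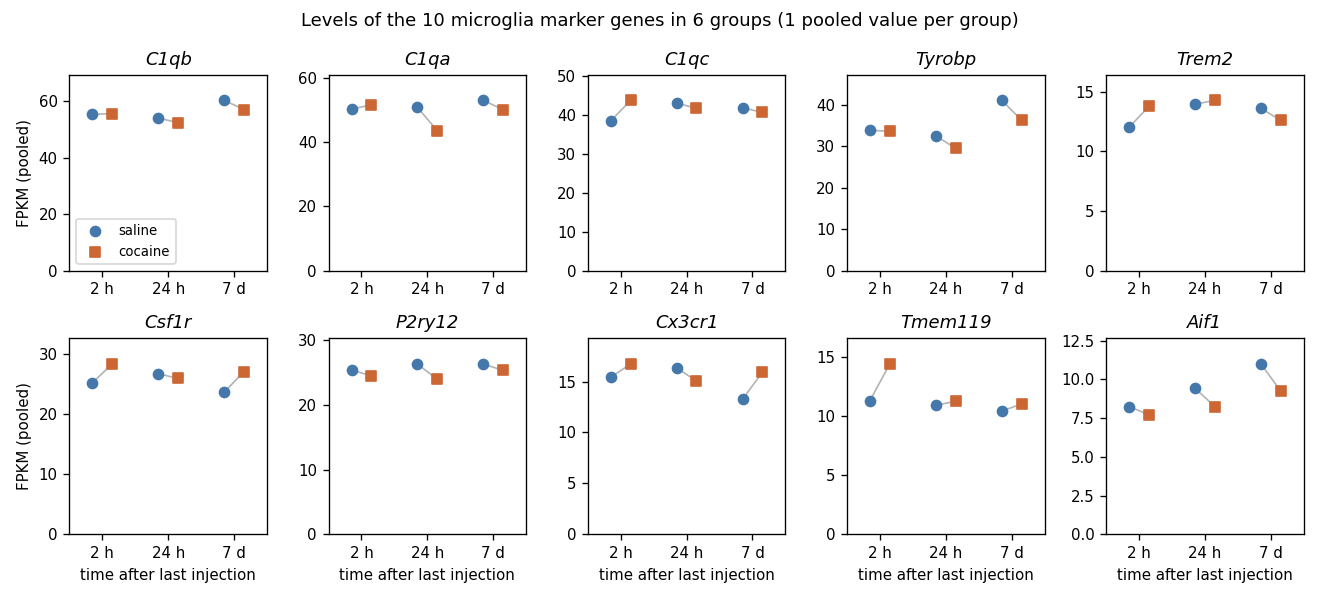
Pooled FPKM of the 10 marker genes (vertical axes from 0, each gene on its own scale) in saline (blue circles) and cocaine (orange squares) at 2 h, 24 h and 7 d, with 1 value per group and no error bar because no replicate values are given. C1qb stayed at or above 52.4 FPKM and Aif1 at or below 10.99 FPKM in the 6 groups, and no gene was more than 1.43 times higher in its highest group than in its lowest.

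The order of the members hardly differed between groups. C1qb was the highest, followed by C1qa, C1qc and Tyrobp, in all 6 groups. Csf1r and P2ry12 shared the next places, Cx3cr1 ranked 7 or 8, Trem2 7 to 9, Tmem119 8 to 10 and Aif1 9 or 10. Pairs whose places crossed between groups (Csf1r with P2ry12, Cx3cr1 with Trem2, Trem2 with Tmem119, and Tmem119 with Aif1) cannot be ordered from these values. Cx3cr1 was above Tmem119 and Aif1, and Trem2 above Aif1, in all 6 groups. The tables of the 3 time points were scaled separately by the authors, so a level set across time points can also carry a difference in scaling. With that limit, the ratio of the highest to the lowest of the 6 values was smallest for P2ry12 (1.098), C1qc (1.14) and C1qb (1.152) and largest for Tmem119 (1.38), Tyrobp (1.39) and Aif1 (1.43).

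The comparison of cocaine with saline was made within each time point as log2((cocaine FPKM + 0.1)/(saline FPKM + 0.1)), called the log2 ratio. Pairs of FPKM are given as saline against cocaine. A gene was counted as past the fold when this ratio reached 1.2-fold in either direction. At 2 h, 7 of the 10 members were higher in cocaine and 3 lower, with a median log2 ratio of 0.08 beside 0.02 over all 13359 named loci with a mean FPKM of at least 1, of which 56.6% were higher in cocaine. At this time point 1 member (Tmem119) was past the fold upward, where 10.5% of all loci were, and 0 were past it downward, where 7.15% were. At 24 h, 2 members were higher and 8 lower, with a median of -0.08 beside 0.01 over 13565 loci, of which 53.1% were higher, and 0 members were past the fold in either direction against 6.09% of loci upward and 5.51% downward. At 7 d, 3 members were higher and 7 lower, with a median of -0.07 beside -0.01 over 13429 loci, of which 47.7% were higher, and 0 were past the fold against 8.12% upward and 11.8% downward. These counts of members past the fold are near what the shares over all loci would give for 10 genes, and so are no result about the members. The direction counts moved with the scaling: with ratios scaled to a common upper quartile, an alternative chosen after seeing the data, 6 members were higher in cocaine at 2 h, 2 at 24 h and 5 at 7 d. With FPKM rescaled to a constant sum per group, 0 were higher at 2 h, 0 at 24 h and 8 at 7 d. That rescaling moved the all-loci median as well, to -1.203 at 2 h, -3.18 at 24 h and 0.13 at 7 d.

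All 10 members lay between the 5th and the 95th percentile of all loci at each time point. Those limits were log2 ratios of -0.33 to 0.39 at 2 h, -0.28 to 0.29 at 24 h, and -0.39 to 0.33 at 7 d. Inside the middle range, between the 25th and the 75th percentile, lay 5 members at 2 h, 5 at 24 h and 6 at 7 d. The ratio of each of the 10 members was lower at 24 h than at 2 h, 6 had a higher ratio at 7 d than at 24 h, and 8 had a lower ratio at 7 d than at 2 h. The all-loci median also differed between 2 h and 24 h, by less than the members' median did, and a constant scaling of a group would shift all members of a time point alike. Shares of all loci were not computed for these counts between time points, so the counts are no result about the members. The counts that involve 7 d also moved with the length trend, given further on, removed. The members' median was then 0.06 at 2 h, -0.09 at 24 h and 0.10 at 7 d.

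**Figure D2:**
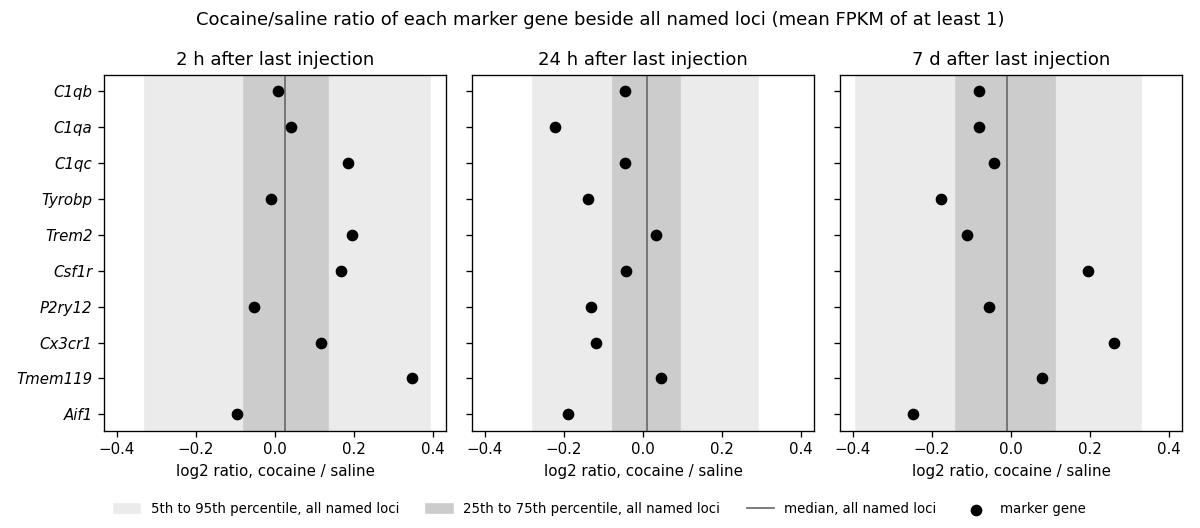
Log2 ratio of cocaine over saline (horizontal axis) for each marker gene (black points, same order in each panel) at the 3 time points. The loci set beside them are all named loci with a mean FPKM of at least 1. Their 5th to 95th percentile is light grey, their 25th to 75th percentile dark grey, and their median a line. The 10 points of each panel stay inside the light band. Tmem119 at 2 h (0.35) and Cx3cr1 at 7 d (0.26) are nearest to its upper edge and C1qa at 24 h (-0.22) nearest to its lower edge. Under a rescaling of FPKM to a constant sum per group all 10 members are lower in cocaine at 2 h and at 24 h. The all-loci medians are then -1.203 at 2 h and -3.18 at 24 h.

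The 3 chains of C1q, the molecule that starts the classical complement pathway and tags synapses and debris for removal, were the most abundant members. C1qa had 50.2 FPKM in saline against 51.6 in cocaine at 2 h, 50.8 against 43.5 at 24 h, and 53.0 against 50.0 at 7 d. Its value in cocaine at 24 h was the lowest of the 6, with a log2 ratio of -0.22 at percentile 7.39 of all loci, while the other 5 values lay within 50.0 to 53.0 FPKM. C1qb had 55.4 against 55.7 FPKM at 2 h, 54.2 against 52.4 at 24 h, and 60.4 against 57.1 at 7 d, with log2 ratios of 0.01, -0.05 and -0.08. C1qc had 38.6 against 43.9 FPKM at 2 h, 43.1 against 41.8 at 24 h, and 42.0 against 40.7 at 7 d, with log2 ratios of 0.18, -0.04 and -0.04. The 3 chains thus had the same signs in the values as deposited, but not the same sizes. All 3 were higher in cocaine at 2 h and lower at 24 h and 7 d. The sign turned for all 3 at 2 h and 7 d under rescaling to a constant sum per group. Under that rescaling the all-loci median was -1.203 at 2 h and 0.13 at 7 d. The signs at 7 d also turned with the length trend, given further on, removed. At 2 h the ratio was largest for C1qc and at 24 h the difference was largest for C1qa.

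Relative to the other members the C1q chains kept within a narrow range. Together they made up 51.8% to 52.7% of the summed FPKM of the 10 members in the 6 groups. C1qb was 1.07 to 1.21 times as high as C1qa, with the highest ratio in cocaine at 24 h, where C1qa was low. C1qb was 1.25 to 1.44 times as high as C1qc. These ratios are taken within a group, and a common scaling of the group leaves them as they are.

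The 3 genes are neighbours on chromosome 4. On GRCm38 they lie between positions 136880126 and 136898844, a span of 18719 bases, in the order C1qb, C1qc and C1qa, with 3600 bases between C1qb and C1qc and 2979 bases between C1qc and C1qa. In the tables each of them has a region of its own that holds no other gene. The sequences upstream of C1qb and C1qc are shown because these neighbours shared signs at all 3 time points in the values as deposited. With ratios scaled to a common upper quartile their signs differed at 2 h (C1qb -0.02, C1qc 0.15) and at 7 d (C1qb -0.02, C1qc 0.02). The sequences come from the RefSeq promoter table of build GRCm38.p6 and cover the 250 bases before the listed start. Both are written 5′ to 3′ on the strand of the gene. The windows are chr4:136886201-136886450 and chr4:136892915-136893164, both on the minus strand, and the start listed for C1qc lies within the widest annotated span of the gene. Capitals mark matches on either strand to 2 motifs. GAGGAA, whose reverse complement reads TTCCTC, is the core bound by factors of the PU.1 type. GGAAGT, whose reverse complement reads ACTTCC, is a core of the wider ETS family to which PU.1 belongs.
C1qb: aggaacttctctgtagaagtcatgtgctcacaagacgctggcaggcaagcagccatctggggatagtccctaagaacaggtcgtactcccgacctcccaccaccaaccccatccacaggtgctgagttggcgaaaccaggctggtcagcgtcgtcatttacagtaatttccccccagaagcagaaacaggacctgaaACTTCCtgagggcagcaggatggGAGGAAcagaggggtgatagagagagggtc
C1qc: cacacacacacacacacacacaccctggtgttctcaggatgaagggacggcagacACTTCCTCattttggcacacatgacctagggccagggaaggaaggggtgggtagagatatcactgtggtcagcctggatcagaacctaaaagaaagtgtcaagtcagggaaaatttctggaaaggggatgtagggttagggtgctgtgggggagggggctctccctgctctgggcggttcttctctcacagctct
C1qb holds GAGGAA 30 bases and GGAAGT, in reverse, 53 bases upstream of its start. In C1qc the matches to both motifs overlap, 193 and 195 bases upstream, so that they are not independent of each other.

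The RefSeq table holds 6 of the 10 members, namely Cx3cr1, C1qb, C1qc, P2ry12, Aif1 and Trem2. GAGGAA was found in 4 of these 6 windows of 250 bases, against 23.25% of 32851 promoters of all genes, and GGAAGT in 3 of 6 against 19.74%. With 6 windows these are descriptions, and a match does not show a bound site. Cx3cr1 had neither motif. The 120 bases nearest to the start are shown for the 3 remaining windows with a match, chr3:59262986-59263105 (P2ry12, minus strand), chr17:35176053-35176172 (Aif1, minus strand) and chr17:48346281-48346400 (Trem2, plus strand), with the same use of capitals.
P2ry12: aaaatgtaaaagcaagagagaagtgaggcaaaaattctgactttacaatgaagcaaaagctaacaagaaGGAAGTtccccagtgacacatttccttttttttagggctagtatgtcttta
Aif1: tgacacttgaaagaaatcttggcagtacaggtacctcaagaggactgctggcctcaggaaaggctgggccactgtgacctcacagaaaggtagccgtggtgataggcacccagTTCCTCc
Trem2: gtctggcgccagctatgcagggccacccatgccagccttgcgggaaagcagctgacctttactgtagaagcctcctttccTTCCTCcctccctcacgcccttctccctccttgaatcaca
The match lies 51 bases upstream of the listed start in P2ry12 (GGAAGT), 7 in Aif1 (TTCCTC) and 40 in Trem2 (TTCCTC). The start listed for Aif1 lies within the widest annotated span of the gene, which ends at 35176083, and its match lies inside that span. The match of Trem2 lies inside the region given for Trem2 with the FPKM, which starts at 48346288 at 2 h. P2ry12 and Aif1 were lower in cocaine at all 3 time points, and Trem2 was higher at 2 h and at 24 h. The gene encoding PU.1 itself, Spi1, had 3.26 FPKM in saline against 3.37 in cocaine at 2 h, 3.05 against 3.16 at 24 h, and 3.98 against 3.37 at 7 d, where its log2 ratio was -0.23. It was chosen for mention after its values were seen.

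Trem2, a receptor for lipids and lipoproteins, and Tyrobp, the adaptor (DAP12) through which it signals, did not have the same signs. Trem2 had 12.03 FPKM in saline against 13.8 in cocaine at 2 h, 14.0 against 14.3 at 24 h, and 13.6 against 12.6 at 7 d. Tyrobp had 33.8 against 33.6 FPKM at 2 h, 32.5 against 29.5 at 24 h, and 41.0 against 36.3 at 7 d. Trem2 was thus higher in cocaine at 2 h (log2 ratio 0.19) and at 24 h (0.03) and lower at 7 d (-0.11), whereas Tyrobp was lower throughout (-0.01, -0.14 and -0.18). Tyrobp was 2.81 times as high as Trem2 in saline and 2.44 times in cocaine at 2 h, 2.33 and 2.06 times at 24 h, and 3.01 and 2.88 times at 7 d. The ratio of adaptor to receptor was lower in cocaine than in saline at each time point. Trem2 lies on chromosome 17 (48346401 to 48352276) and Tyrobp on chromosome 7 (30413782 to 30417582), each with a region of its own in the tables.

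The known partners of this pair were measured too. Apoe, a lipoprotein that TREM2 binds, had 1649 FPKM in saline against 1879 in cocaine at 2 h, 2089 against 2028 at 24 h, and 1765 against 1835 at 7 d, with log2 ratios of 0.19, -0.04 and 0.06. It is made mainly by astrocytes in the healthy brain. Hcst, the second adaptor of the DAP family, was near 1 FPKM, with values of 0.897 against 1.13 at 2 h, 1.299 against 0.512 at 24 h, and 1.45 against 1.43 at 7 d. Syk, the kinase that DAP12 recruits, stayed between 0.568 and 0.744 FPKM and did not reach the minimum of 1 FPKM.

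Csf1r, the growth factor receptor on which microglia depend for survival, had 25.2 FPKM in saline against 28.4 in cocaine at 2 h, 26.7 against 25.9 at 24 h, and 23.7 against 27.1 at 7 d. Its log2 ratios were 0.17, -0.04 and 0.19, so the cocaine group was higher at 2 h and at 7 d and close to saline at 24 h. Of its ligands, Il34, which neurons make, had 40.1 against 40.9 FPKM at 2 h, 37.0 against 38.7 at 24 h, and 41.2 against 34.6 at 7 d. Csf1, the other ligand, was lower, with 3.999 against 5.14 FPKM at 2 h, 4.02 against 4.34 at 24 h, and 3.42 against 3.70 at 7 d. At 2 h both Csf1 (log2 ratio 0.35) and Csf1r were higher in cocaine, and at 7 d Il34 was lower (-0.25) and Csf1r higher. Csf1r lies on chromosome 18 (61105572 to 61131139).

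Cx3cr1, the receptor for the neuronal chemokine fractalkine, had 15.4 FPKM in saline against 16.7 in cocaine at 2 h, 16.4 against 15.1 at 24 h, and 13.3 against 15.9 at 7 d. Its log2 ratios of 0.12, -0.12 and 0.26 had the same signs as those of Csf1r. The ratio at 7 d was the largest of any member at that time point, at percentile 91.7 of all loci, and at 1.198-fold it was just short of the fold used for counting. The saline value at 7 d was the lowest of its 6 values, and the cocaine value at 7 d lay within the range of the other 4. Its ligand Cx3cl1 had 225 against 251 FPKM at 2 h, 232 against 236 at 24 h, and 208 against 216 at 7 d, with log2 ratios of 0.16, 0.02 and 0.05. Cx3cr1 lies on chromosome 9 (120048683 to 120068296).

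P2ry12, the ADP receptor that draws microglial processes to injury, was the steadiest member. It had 25.4 FPKM in saline against 24.5 in cocaine at 2 h, 26.3 against 24.0 at 24 h, and 26.4 against 25.4 at 7 d. Cocaine was lower at each time point, with log2 ratios of -0.05, -0.13 and -0.06. Entpd1, the ectoenzyme CD39 that makes ADP and AMP from ATP outside the cell, had 3.61 FPKM in saline against 4.97 in cocaine at 7 d (log2 ratio 0.45). P2ry12 lies on chromosome 3 (59216271 to 59262985) inside the gene Med12l, which had 1.23 to 1.80 FPKM, and the library kit does not mark strand, so reads in the shared stretch cannot be assigned by strand.

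The regions given for 3 members also hold other genes. The region of Cx3cr1 spans 173389 bases with 5 other genes, that of Csf1r 106041 bases at 2 h and 24 h and 71479 at 7 d with 3 other genes, and that of P2ry12 337483 bases at 2 h with 6 other genes. Each member nevertheless has a row and an FPKM of its own.

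Tmem119, a membrane protein that marks microglia but few blood-derived macrophages, had 11.3 FPKM in saline against 14.4 in cocaine at 2 h, 10.9 against 11.2 at 24 h, and 10.4 against 10.99 at 7 d. The cocaine value at 2 h stands above the other 5, which lay within 10.4 to 11.3 FPKM. The difference at 2 h was 1.27-fold (log2 ratio 0.35, percentile 93.6), the only member ratio past the fold at any time point. It turns to -0.91 when FPKM is rescaled to a constant sum per group. The median of all loci is then -1.203 at 2 h, so the ratio of Tmem119 stays above that median. At 24 h and at 7 d its log2 ratios were 0.04 and 0.08. It was the only member that was higher in cocaine at all 3 time points, though not under that rescaling. Tmem119 lies on chromosome 5 (113793729 to 113800396).

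Aif1, whose protein IBA1 is the usual stain for microglia, was the least abundant member in every group but saline at 7 d, where Tmem119 was lower. It had 8.25 FPKM in saline against 7.71 in cocaine at 2 h, 9.42 against 8.25 at 24 h, and 10.99 against 9.25 at 7 d. Cocaine was lower at each time point, with log2 ratios of -0.10, -0.19 and -0.25, and the last was the lowest ratio of any member at 7 d. Aif1 lies on chromosome 17 (35170986 to 35176083). By sign, in the values as deposited, P2ry12, Aif1 and Tyrobp were lower in cocaine at 3 of 3 time points, the C1q chains were higher only at 2 h, Cx3cr1 and Csf1r were higher at 2 h and 7 d, Trem2 at 2 h and 24 h, and Tmem119 at all 3. Scaling to a common upper quartile turned 3 of these signs, all near 0, namely C1qb at 2 h (-0.02), C1qc at 7 d (0.02) and P2ry12 at 7 d (0.0045).

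The ratios at 7 d went with transcript length. Over 11039 loci with a known length, Spearman's rho between the log2 ratio and the length of the longest annotated transcript was 0.479 at 7 d, against 0.158 over 11063 loci at 2 h and 0.0848 over 11139 loci at 24 h. At 7 d the median log2 ratio was -0.23 in the class of the shortest transcripts and 0.14 in that of the longest. Among the 10 members rho was 0.918 at 7 d, 0.413 at 2 h and 0.535 at 24 h. These are descriptions across genes, which come from the same libraries and are not replicates. The members higher in cocaine at 7 d, Csf1r (4701 bases), Cx3cr1 (3729 bases) and Tmem119 (2242 bases), were among the 4 longest, and the lowest ratios belonged to Aif1 (875 bases) and Tyrobp (564 bases), the shortest.

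After the median of each gene's length class was taken off, the direction count at 7 d turned. The members' median became 0.10, with 8 of 10 members higher in cocaine in place of 3. P2ry12 and Aif1 were then at -0.01 each, C1qa and C1qb at 0.10, C1qc at 0.13, Tyrobp at 0.06, Trem2 at 0.07, Tmem119 at 0.12 and Csf1r at 0.13. Cx3cr1 had the highest value, 0.23. At 2 h and 24 h the counts stayed at 7 and 2 of 10, with medians of 0.06 and -0.09. The length trend at 7 d was also present when saline was compared between tables, which were scaled separately: over 10841 loci the ratio of saline at 7 d to saline at 2 h had a rho of -0.482 with length, and the same ratio in cocaine had a rho of -0.171. The first of these shares its saline values at 7 d with the comparison of cocaine and saline. What part of the members' differences at 7 d comes with length and what part with cocaine was not tested.

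**Figure D3:**
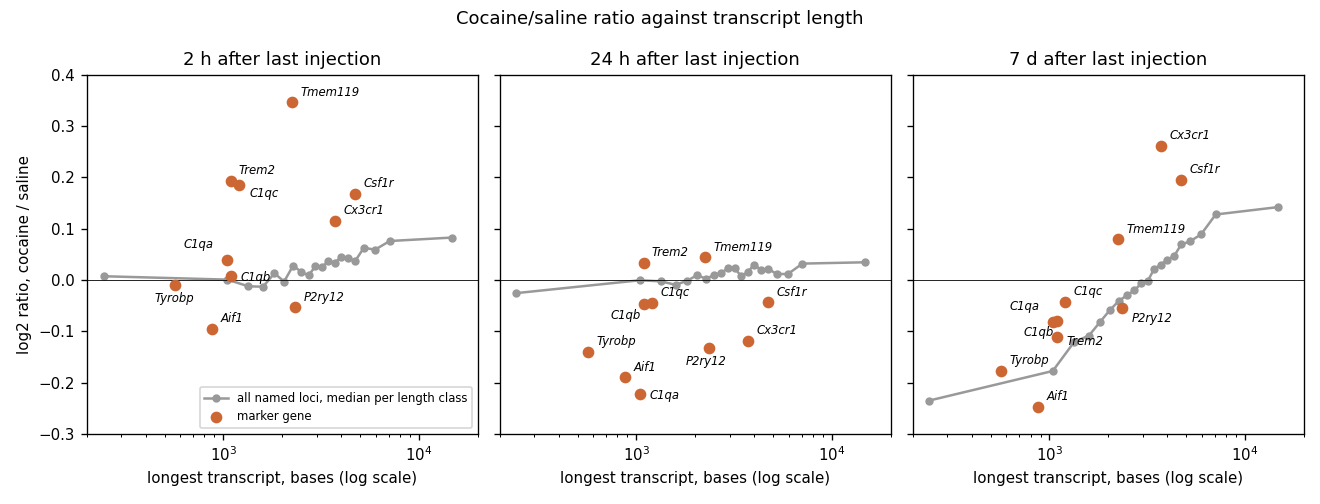
Log2 ratio of cocaine over saline (vertical axis) against the length of the longest annotated transcript (horizontal log axis, bases) for the 10 marker genes (orange) and as the median of all named loci in 20 length classes (grey line) at the 3 time points. At 7 d the line climbs from -0.23 to 0.14 and the members climb along it, 8 of them above it, whereas at 2 h and 24 h the line is flatter.

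Other genes enriched in microglia were set beside the members. Of 25 listed genes 24 were found, and 22 passed the minimum of 1 FPKM at 2 h and 21 at 24 h and at 7 d. At 2 h, 12 of 22 were higher in cocaine, at 24 h 8 of 21 and at 7 d 13 of 21, with median log2 ratios of 0.01, -0.08 and 0.09. Past the fold at 2 h were Fcgr3 (0.30) and Selplg (0.27) upward, encoding an Fc receptor and a selectin ligand, and Ikzf1 (-0.46) downward. At 24 h Fcer1g, the Fc receptor gamma chain that like DAP12 carries an activation motif, had 19.4 FPKM in saline against 15.01 in cocaine (-0.37). At 7 d Laptm5 (0.37) and the integrin Itgam (0.29) were past the fold upward and the receptor Gpr34 (-0.27) downward.

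Genes linked to microglial activation had their highest median at 2 h and their lowest at 24 h, as the members did. Of 21 listed, 14 passed the minimum, and 12 of them were higher in cocaine at 2 h, 1 at 24 h and 9 at 7 d, with median log2 ratios of 0.11, -0.15 and 0.05. With the length trend removed the medians were 0.115, -0.154 and 0.177, so that the highest was then at 7 d, as it was for the members. At 24 h the genes of antigen presentation H2-Ab1 (-0.59), Cd74 (-0.43) and H2-Aa (-0.41) and the secreted protein gene Spp1 (-0.41) were lower past the fold. H2-Ab1 had 2.77 FPKM in saline against 1.81 in cocaine, and Cd74 had 6.66 and 4.91. Border macrophages also express these class II genes. Of their 7 markers 3 passed the minimum, with log2 ratios at 24 h of -0.52 (Pf4), -0.33 (Mrc1) and 0.01 (Cbr2), and of the 4 below it 3 were higher in cocaine and F13a1 lower. Their part in the class II values was not tested. At 2 h the chemokine gene Ccl6 was lower (-0.44), and at 7 d the receptor kinase gene Axl was higher (0.35). Among genes of disease-associated microglia, Cst7, Itgax, Clec7a and Gpnmb were at or below 0.370 FPKM in all groups, whereas Lpl reached 3.95 FPKM, Spp1 9.46, Axl 14.4 and Cd9 30.7, and other cortical cells also express these 4.

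Of 14 inflammatory genes, 4 passed the minimum, 2, 1 and 2 of them higher in cocaine, with median log2 ratios of 0.03, -0.03 and -0.08 at 2 h, 24 h and 7 d. Il1b was at or below 0.465 FPKM, Tnf at or below 0.0681 FPKM and Il6 at or below 0.0580 FPKM in every group, levels at which no ratio was read. Nfkbia, an NF-kappa-B inhibitor and target, was higher at 2 h (0.30), the cyclooxygenase gene Ptgs1 lower at 24 h (-0.31) and the LPS co-receptor gene Cd14 lower at 7 d (-0.26).

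The complement genes downstream of C1q were low in this tissue. The proteases that C1q carries, C1ra and C1s1, had at most 0.762 and 0.559 FPKM, and C3 at most 0.146 FPKM, so no ratio was read for them. C4b had 1.4999 against 1.36 FPKM at 2 h, 1.41 against 1.81 at 24 h, and 1.58 against 1.25 at 7 d, with log2 ratios of -0.13, 0.34 and -0.32, signs opposite to those of the C1q chains at 2 h and 24 h. Of 15 complement genes 8 passed the minimum, of which 6, 2 and 3 were higher in cocaine at 2 h, 24 h and 7 d, with medians of 0.14, -0.19 and -0.06. Regulators were among those past the fold: Cd59a (0.50) and Serping1 (0.39), which encodes the C1 inhibitor, were higher at 2 h, Cd55 was lower at 24 h (-0.31) and at 7 d (-0.28), and C2, on a row shared with Cfb, was lower at 24 h (-0.36).

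The 12 ligands and partners of the member receptors had 10, 9 and 10 genes over the minimum at 2 h, 24 h and 7 d, of which 9, 3 and 6 were higher in cocaine, with medians of 0.11, -0.02 and 0.05. Beside Csf1 and Entpd1, those past the fold were Tgfb1 (0.40), a factor that maintains the microglial program, Hcst (0.30) and, downward, the phosphatase gene Inpp5d (-0.30), all at 2 h.

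Markers of other cell types of the cortex also had medians away from 0. Astrocyte markers had medians of 0.16, -0.15 and 0.21, with 10 of 10 higher in cocaine at 2 h, 1 of 10 at 24 h and 9 of 10 at 7 d. Gjb6 was higher at 2 h (0.45), Gfap (-0.35) and Aqp4 (-0.31) were lower at 24 h, and Slc1a2 (0.39), Sox9 (0.35), Gjb6 (0.33) and Gfap (0.29) were higher at 7 d. Oligodendrocyte markers had medians of -0.05, -0.23 and 0.02 (2, 0 and 6 of 10 higher), with Opalin lower at 2 h (-0.53) and 7 d (-0.40), and Mbp (-0.30) and Ermn (-0.28) lower at 24 h. Endothelial markers had medians of 0.13, -0.05 and 0.14 (8, 4 and 9 of 10 higher), with Slc2a1 (0.44), Cdh5 (0.28) and Ly6c1 (0.28) higher at 2 h and Flt1 (0.33) higher at 7 d. Neuron markers stayed nearer to 0, with medians of 0.00, -0.01 and 0.06 (5, 4 and 7 of 9 higher).

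The members' median was lowest at 24 h, as were those of all other lists, neuron markers included, except the inflammatory genes. The median of the inflammatory genes was lowest at 7 d (-0.08). The summed FPKM of the members was 275.7 in saline and 290.2 in cocaine at 2 h, 284.2 against 266.0 at 24 h, and 294.7 against 285.4 at 7 d. That of the oligodendrocyte markers was 707.0 and 668.1, 846.9 and 707.8, and 822.9 and 817.7, and that of the astrocyte markers 1199 and 1368, 1347 and 1285, and 1198 and 1335. Markers of border macrophages (3 of 7 over the minimum, with sums over all 7 between 6.96 and 8.66 FPKM) had medians of -0.04, -0.33 and 0.24. Of these, Cbr2 was higher at 2 h (0.43) and Pf4 at 7 d (0.27). Markers of blood cells (3 of 11 over the minimum, with sums over all 11 between 10.5 and 15.5 FPKM) had medians of 0.21, 0.14 and 0.29. The medians at 2 h and 24 h were those of Ly6c2, whose reads can be confused with those of Ly6c1. Past the fold were S100a9 (0.34 at 2 h and 0.68 at 7 d) and S100a8 (-1.06 at 2 h and 0.29 at 7 d), both at or below 3.12 FPKM. The part that the mix of cell types in the dissected tissue has in the members' ratios was not tested.

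**Figure D4:**
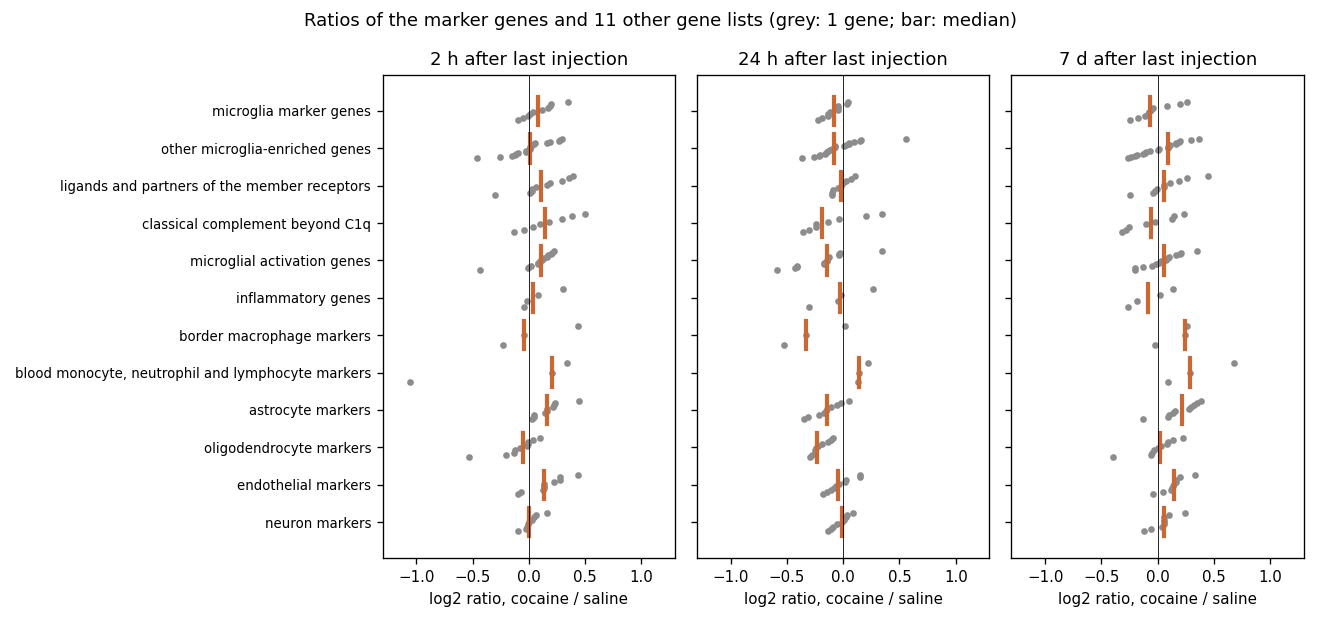
Log2 ratio of cocaine over saline (horizontal axis) at the 3 time points for the microglia marker genes and 11 other lists; each grey point is 1 gene with a mean FPKM of at least 1, spread vertically only for display, and each orange bar the median of the list. At 24 h the bars of all lists but the blood cell markers (0.14) lie left of 0. Among them are the microglia marker genes (-0.08), astrocyte (-0.15), oligodendrocyte (-0.23) and neuron markers (-0.01). At 2 h the bars of the border macrophage (-0.04) and oligodendrocyte markers (-0.05) lie left of 0. The other bars at 2 h, such as those of the marker genes (0.08) and astrocyte markers (0.16), lie right of 0 or, for neuron markers (0.00), at it.

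The members did not follow a common course over the 6 groups. Pearson's r of a member's log2 level with the mean of the other 9, over the 6 pooled values, was 0.725 for C1qa, 0.521 for C1qb, 0.503 for C1qc, 0.384 for P2ry12 and 0.323 for Tyrobp. It was near 0 or below for Csf1r (0.00756), Aif1 (-0.0135), Trem2 (-0.0336), Tmem119 (-0.0911) and Cx3cr1 (-0.193). The 6 values come from 3 tables scaled separately, so that part of any r across them can be a difference in scaling. Among 8283 other genes with a mean of at least 5 FPKM at each time point, those most like the members' mean were Gpx8 (r = 0.981), Nek6 (0.981), Eef1a1 (0.976), Cpq (0.974) and Trip4 (0.971), and 26 genes (0.314%) were over 0.9. With 6 points these are descriptions. None of these 5 is on the lists of microglial genes used here.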

How the data were processed

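The authors prepared polyA-selected libraries with a kit that does not mark strand and sequenced them in pairs. Per the labels the processing used Trimmomatic 0.32, TopHat2 2.0.12 and Cufflinks 2.2.1 with Cuffdiff, and per the methods uniquely mapped reads were kept. The labels and the methods differ in read length and in the trimming tool, and name GRCm38 and mm9, respectively. Of the named loci found in RefSeq, 99.7% to 99.8% overlapped the gene of that name on GRCm38, so GRCm38 was used. The deposited tables, 1 per time point, hold 1 FPKM per locus and group, pooled by the authors over 2 libraries. Columns of the authors' comparisons (status, fold change, test statistic, p, q and significance) were not used. The saline and cocaine columns were checked against the headings of the study's gene lists, where 454 of 457, 14 of 14 and 531 of 531 genes were closer with the first column as saline.

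Ratios were log2((cocaine + 0.1)/(saline + 0.1)), counted at 1.2-fold, beside all named loci with a mean FPKM of at least 1, with 1 row per gene name (the longest locus, ties to the higher mean). Lengths were taken from GENCODE vM1, as the longest protein-coding transcript of a symbol, found for 82.1% to 82.8% of loci, and the trend was the median in 20 classes. Positions of genes and promoters came from RefSeq tables of GRCm38.p6. With 1 pooled value per group no test was run, and precision is unknown. The scripts were tested on simulated data. Python 3.11.15, pandas 2.3.3, numpy 2.4.6, scipy 1.17.1 and matplotlib 3.10.9 were used. Members, lists and rules were chosen with earlier results of these data known. Named were all members, the direct partners Csf1, Il34, Cx3cl1, Apoe, C1ra, C1s1, C3, C4b, Hcst and Syk, up to 4 genes past the fold per list and time point, and the 5 genes most like the members; a few genes that the rule names are not reported here; other named genes are said to be chosen later or mark a cell type or level. Alternatives were other pseudocounts, scalings, folds, minimum levels, row choices and removal of the length trend.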

Additional observations from a re-analysis of the deposited data

How the results depend on the processing

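The members' median ratio kept its sign at all 3 time points with a pseudocount of 1 or of 0 and with ratios centred on the all-loci median. Summing loci and asking members for at least 5 FPKM could not change it, because each member has 1 row and all exceed 5 FPKM. Rescaling FPKM to a constant sum per group gave medians of -1.19 (2 h), -3.41 (24 h) and 0.0787 (7 d) beside all-loci medians of -1.203, -3.18 and 0.13, with 0 members higher and 10 lower past the fold (2 h), 10 lower (24 h) and 2 higher (7 d), and Tmem119 at 2 h at -0.91. The gene with the highest FPKM alone took 17.0% of the sum in saline at 24 h (Mir320) and 81.3% in cocaine at 24 h (Mir2137), with the other 4 groups between these. Centring on the all-loci median, and scaling to a common upper quartile (chosen after seeing the data), each put 1 member past the fold upward at 7 d. A fold of 1.1 gave 4 members higher at 2 h, 3 lower at 24 h, and 2 higher and 2 lower at 7 d, and a fold of 1.5 gave 0 higher at 2 h. Shares of all loci were not computed for these folds and scalings, so the counts are no result about the members. With the length trend removed the median at 7 d was 0.10. The share of all loci past 1.2-fold was 7.33% upward and 3.38% downward at 2 h, 3.95% against 2.53% at 24 h, and 4.58% against 11.1% at 7 d when a mean of at least 5 FPKM was asked. No paired analysis was possible because each group has 1 pooled value, and for the same reason no replicate could be left out. Depth is not known from the tables, so the smallest difference they could show is not known either.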
